A study of Mus musculus with 4 samples.

Results

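The 10 phosphodiesterase genes described here are Pde1a, Pde1c, Pde2a, Pde3a, Pde4a, Pde4b, Pde4d, Pde7b, Pde8b and Pde10a. They were taken as a given list from the 25 features whose symbol is Pde with a number and a letter, among 45706 features counted in all, and all 10 were found in the count files. Each was followed as unique molecular identifiers (UMIs, 1 per captured RNA molecule) through 13 clusters of nuclei, from radial glia-like stem cells to mature granule cells of the adult dentate gyrus, and in glia.

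Single-nucleus RNA-seq had been carried out on 4 libraries, 1 for each of 1, 2, 4 and 8 weeks (w1, w2, w4 and w8) after tamoxifen, with no untreated library. All animals were male and female mice on a C57BL/6J background, given in the paper as 6 to 8 weeks of age without the step at which this held. Time since tamoxifen adds to age, so age at collection and week cannot be told apart. The mice carried a tamoxifen-inducible Cre (Ascl1CreERT2) and the reporter CAGfloxStop-Sun1/sfGFP, in which Cre turns on a green nuclear-envelope protein in the recombined cell and all its progeny. Each library pooled the left dentate gyri of 4 mice, so a week is 1 pool and weeks have no replicate. Nuclei were sorted for the green protein, a design meant to leave out granule cells born before the induction. The clusters were those the authors assigned, namely astrocytes (Astro), radial glia-like cells (RGL), neural progenitor cells (NPC), neuroblasts (NB1, NB2), immature (GCimm1, GCimm2), young (GCyoung) and mature granule cells (GCmat1, GCmat2), oligodendrocyte precursor cells (OPC), oligodendrocytes (Oligo) and pericytes (Peri).

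Of 17046 barcodes, 14367 carried a cluster label, and the clustered nuclei of a library summed to between 13227971 and 28595331 UMIs. The authors had left out a set of w4 nuclei that stood apart before they clustered the rest, and 3831 of the 5459 barcodes of w4 have a label. Markers listed for each name were highest in the named cluster for 5 of 5 genes in Astro, 5 of 5 in NPC, 5 of 5 in neuroblasts, 4 of 4 in OPC and 4 of 4 in Oligo, but for only 3 of 6 in RGL, 3 of 4 in the immature granule cells, 3 of 4 in Peri and 3 of 5 in GCmat2. Of the 14345 distinct barcodes, 22 occurred in more than 1 library. Clusters ranged from 45 nuclei (Oligo) to 3356 (GCmat1), and the median depth of a nucleus from 4057.5 UMIs (NB1) to 8138 (GCmat1). The paper states that time points were processed in pairs on a day, but which weeks shared a day is not given in the sources used here. A difference between weeks and one between days therefore cannot be told apart.

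Cyclic nucleotide phosphodiesterases hydrolyse the second messengers cAMP and cGMP, and so limit how far and how long these signals spread after adenylyl or guanylyl cyclases have made them. The families differ in substrate and in what regulates them. PDE1 enzymes are activated by calcium and calmodulin and cut both nucleotides, PDE2 is stimulated and PDE3 inhibited by cGMP, PDE4, PDE7 and PDE8 are selective for cAMP, and PDE10A cuts both and is best known from striatal projection neurons. In newborn granule cells, cAMP signalling to the transcription factor CREB is known for its part in survival and in the growth of dendrites.

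The genes lie on 8 chromosomes of GRCm38, with positions from GENCODE M21, and their spans run from 47.5 kb (Pde4a, chr9:21165714-21213248, plus strand) to 1503.5 kb (Pde4d, chr13:108449948-109953461, plus strand). The others are Pde1a (chr2:79834453-80129458, minus), Pde1c (chr6:56069804-56569103, minus), Pde3a (chr6:141249269-141507448, plus), Pde4b (chr4:102087543-102607259, plus), Pde7b (chr10:20398004-20725078, minus), Pde8b (chr13:95024454-95250336, minus) and Pde10a (chr17:8525372-8986648, plus). The feature called Pde2a in the files, ENSMUSG00000030653, is named Gm45837 in M21 (chr7:101410886-101512819, plus) and covers nearly all of the gene M21 calls Pde2a (chr7:101421691-101512827), whose own identifier is not a feature of the files. The annotation release behind the files is not given in the sources used here, so the bounds over which Pde2a was counted are not known, and RNA of a second gene model at this place cannot be told apart from it. UMIs were counted over exons and introns, so a level holds unspliced RNA from the whole span.

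The promoters of the genes whose course the results turn on are shown first. RefSeq gave the 250 bases before 28 transcript starts for 9 of the 10 genes (GRCm38.p6), and these were searched on both strands for TGACGT, the core of the cAMP response element that CREB binds. It was found in the windows of Pde4b (chr4:102421305-102421554, plus strand) and Pde4a (chr9:21183851-21184100, plus strand), where it reads ACGTCA on the printed strand and starts at positions -35 and -51 from the transcript start. The windows of Pde7b (chr10:20548329-20548578, minus strand) and Pde8b (chr13:95250337-95250586, minus strand), 2 cAMP-selective enzymes that followed the most similar course, hold none. Capitals mark the motif, and each window is written 5′ to 3′ up to the base before the start.
Pde4b: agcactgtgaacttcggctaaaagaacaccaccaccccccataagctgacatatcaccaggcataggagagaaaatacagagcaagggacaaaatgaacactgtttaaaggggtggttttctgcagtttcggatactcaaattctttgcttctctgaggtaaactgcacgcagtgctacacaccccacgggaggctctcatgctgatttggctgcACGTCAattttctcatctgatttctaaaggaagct
Pde4a: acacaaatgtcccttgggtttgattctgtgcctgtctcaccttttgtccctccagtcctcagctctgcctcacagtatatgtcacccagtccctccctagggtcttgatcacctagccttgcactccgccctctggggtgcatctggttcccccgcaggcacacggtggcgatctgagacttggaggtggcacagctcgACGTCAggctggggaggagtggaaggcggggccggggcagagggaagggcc
Pde7b: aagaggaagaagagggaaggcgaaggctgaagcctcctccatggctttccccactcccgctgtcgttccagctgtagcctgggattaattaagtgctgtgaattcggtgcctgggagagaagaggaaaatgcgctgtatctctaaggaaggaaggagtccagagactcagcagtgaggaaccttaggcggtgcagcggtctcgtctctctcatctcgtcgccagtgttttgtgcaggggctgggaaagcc
Pde8b: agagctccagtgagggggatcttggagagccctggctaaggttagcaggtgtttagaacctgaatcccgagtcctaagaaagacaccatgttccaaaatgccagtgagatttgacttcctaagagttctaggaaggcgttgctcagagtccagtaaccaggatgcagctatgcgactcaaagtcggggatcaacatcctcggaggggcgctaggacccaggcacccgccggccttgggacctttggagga
Thus 2 of 28 windows held the motif, against 6.47% of the 32851 promoter windows of all genes, and Pde4b and Pde4a had other starts without it. A match describes the letters only, and no binding was measured.

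Neighbouring clusters were compared on UMIs summed per library and cluster, with edgeR's quasi-likelihood test, cluster and library as terms, and 13513 genes tested. Calls required a change of 1.5-fold or more together with an adjusted p not above 0.05 (Benjamini-Hochberg, over all genes). Changes are log2 differences in the order named, with their standard error (SE). All 10 genes were tested in every comparison. The clusters had been drawn by the authors from the same expression values. These p-values therefore describe how far clusters differ beyond a spread between libraries that was estimated over all clusters of the fit. They are not a test of whether the clusters exist. In each comparison between GCimm1 and GCmat2 only 2 libraries held both clusters with at least 10 nuclei.

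Many of the called changes lay at the exit from the stem cell state. From RGL to NPC 7 of the 10 genes fell and none rose, where 29.5% of all genes were called, 13.7% higher and 15.9% lower. From NPC to NB1 4 rose and 4 fell (29.3% of all genes, 14.7% higher and 14.6% lower). From NB1 to NB2 only Pde4d was called, and it fell (2.94% of all genes, 1.81% higher and 1.13% lower). From NB1 to GCimm1 2 rose and 2 fell (12.5% of all genes, 7.76% higher and 4.75% lower).

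The second series of changes followed within the immature granule cells. From GCimm1 to GCimm2 5 rose and 2 fell, against 9.43% of all genes (6.52% higher, 2.91% lower), and from GCimm2 to GCyoung 4 rose and 2 fell, against 18.9% (9.27% higher, 9.62% lower). Only Pde4b was called from GCyoung to GCmat1, where it fell (3.85% of all genes, 1.6% higher and 2.25% lower). From GCmat1 to GCmat2 3 genes rose (7.3% of all genes, 3.01% higher and 4.28% lower), and from Astro to RGL 2 rose (9.58%, with 4.77% higher and 4.82% lower). The median change over the 10 genes lay at -1.33 from RGL to NPC and at 0.61 from GCimm1 to GCimm2, beside -0.05 and -0.02 over all genes tested.

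On the mean log2 values of the deposited table, tested with limma, 22 of the 43 called changes that could be tested there lost their call, and none of the genes was called from GCimm1 to GCimm2. On that scale some changes fell below 1.5-fold at an adjusted p that passed, as Pde1a from NPC to NB1 (-0.53, adjusted p = 3.7e-06). Others missed both, as Pde7b from GCimm1 to GCimm2 (0.02, adjusted p = 1.0). Why calls were lost on that scale was not tested. The calls lost were those of Pde1a, Pde3a, Pde4a, Pde7b, Pde8b and Pde10a from NPC to NB1, of Pde3a and Pde4d from RGL to NPC, and of Pde4a and Pde7b from NB1 to GCimm1. Later along the path they were those of Pde1a, Pde1c, Pde4a, Pde4b, Pde7b and Pde8b from GCimm1 to GCimm2, of Pde1c, Pde4d and Pde8b from GCimm2 to GCyoung, of Pde4b from GCyoung to GCmat1, and of Pde3a and Pde4b from GCmat1 to GCmat2. The lost calls named below for single genes are those under the other alternatives.

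**Figure D1:**
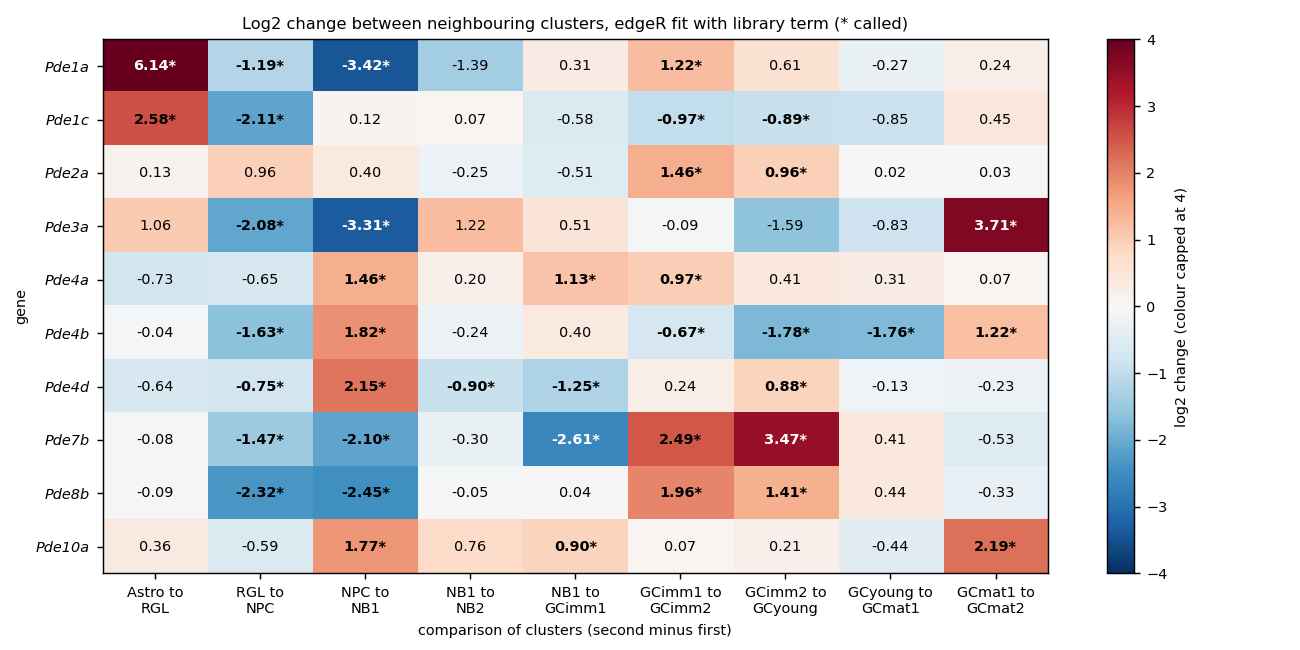
Log2 change (second minus first cluster, colour and number) of each of the 10 genes in 9 comparisons of neighbouring clusters, from the edgeR fit; an asterisk and bold type mark called changes. Blue dominates the RGL to NPC column with 7 called decreases, and Pde7b has the strongest called increase from GCimm2 to GCyoung, 3.47.

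Among the calcium- and calmodulin-activated enzymes, Pde1a marked RGL against astrocytes. Levels are given as UMIs per 1000000 UMIs of the same nuclei (CPM). Fitted changes also use TMM scaling factors, which CPM leave out, so a fitted change can differ from the ratio of the CPM beside it. In RGL of w1, w2, w4 and w8 Pde1a stood at 575, 397, 362 and 660 CPM, whereas in Astro it stood at 7.66, 0 and 10.8 CPM in w1, w2 and w4. The groups did not overlap, and only 2 Pde1a UMIs were counted among 335189 of astrocytes, so the pooled ratio of 78.8 has a counting interval of 21.8 to 651. The fitted change was 6.14 (SE 0.74, adjusted p = 6.0e-09), where the median of all genes was 0.27 (0.07 with RLE factors), and it was 6.80 without w4. Astrocyte markers moved the other way, with 2094 CPM summed over 5 genes in Astro and 351 in RGL.

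Pde1a then fell at each of the following steps to the neuroblast. In NPC it was at 256 CPM in w1, 222 in w2 and 144 in w4 (change -1.19, SE 0.27, adjusted p = 3.7e-04). In NB1 the same libraries gave 16.5, 18.6 and 17.9 CPM (-3.42, SE 0.34, adjusted p = 4.9e-12), so that every NB1 value lay below every NPC value. It rose again from GCimm1 to GCimm2, from 15.6 to 29.1 CPM in w2 and from 35.7 to 62.1 in w4 (1.22, SE 0.32, adjusted p = 0.0068). That call was lost with DESeq2 (adjusted p = 0.239), without the library term (0.0745) and without w2 (0.138).

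Pde1c, the other PDE1 gene among the 10, followed a single descent. It was also higher in RGL (428, 461, 492 and 427 CPM in w1, w2, w4 and w8) than in Astro (84.3, 53.4 and 130 in w1, w2 and w4), a change of 2.58 (SE 0.35, adjusted p = 1.4e-07), and fell from RGL to NPC by 2.11 (SE 0.26, adjusted p = 1.6e-09). All 4 RGL libraries lay above all astrocyte, NPC and later ones of at least 10 nuclei. From NPC through NB1 to NB2 its pooled level was 147, 127 and 136 CPM, with no call. It fell again from GCimm1 to GCimm2 (71.4 to 25.7 CPM in w2 and 78.8 to 55.7 in w4; -0.97, SE 0.26, adjusted p = 0.0063) and from GCimm2 to GCyoung (-0.89, SE 0.31, adjusted p = 0.035). Per nucleus, w4 had 0.338 UMIs of Pde1c in GCimm1 and 0.318 in GCimm2. It was at 6.40 CPM in w1, 19.1 in w4 and 2.80 in w8 in GCmat1, the cluster in which its pooled level was lowest (4.83 CPM). GCyoung had 21.0 CPM in w4 and 6.97 in w8, so the pooled levels of these clusters also hold a difference between libraries. The step from GCyoung to GCmat1 was not called (-0.85, SE 0.34, adjusted p = 0.219). The step from GCimm1 to GCimm2 lost its call with DESeq2 (adjusted p = 0.124), without the library term (0.157) and without w2 (0.558). The step from GCimm2 to GCyoung lost it with DESeq2 (0.150), without the library term (0.214) and without w4 (-1.63, adjusted p = 0.0997).

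**Figure D2:**
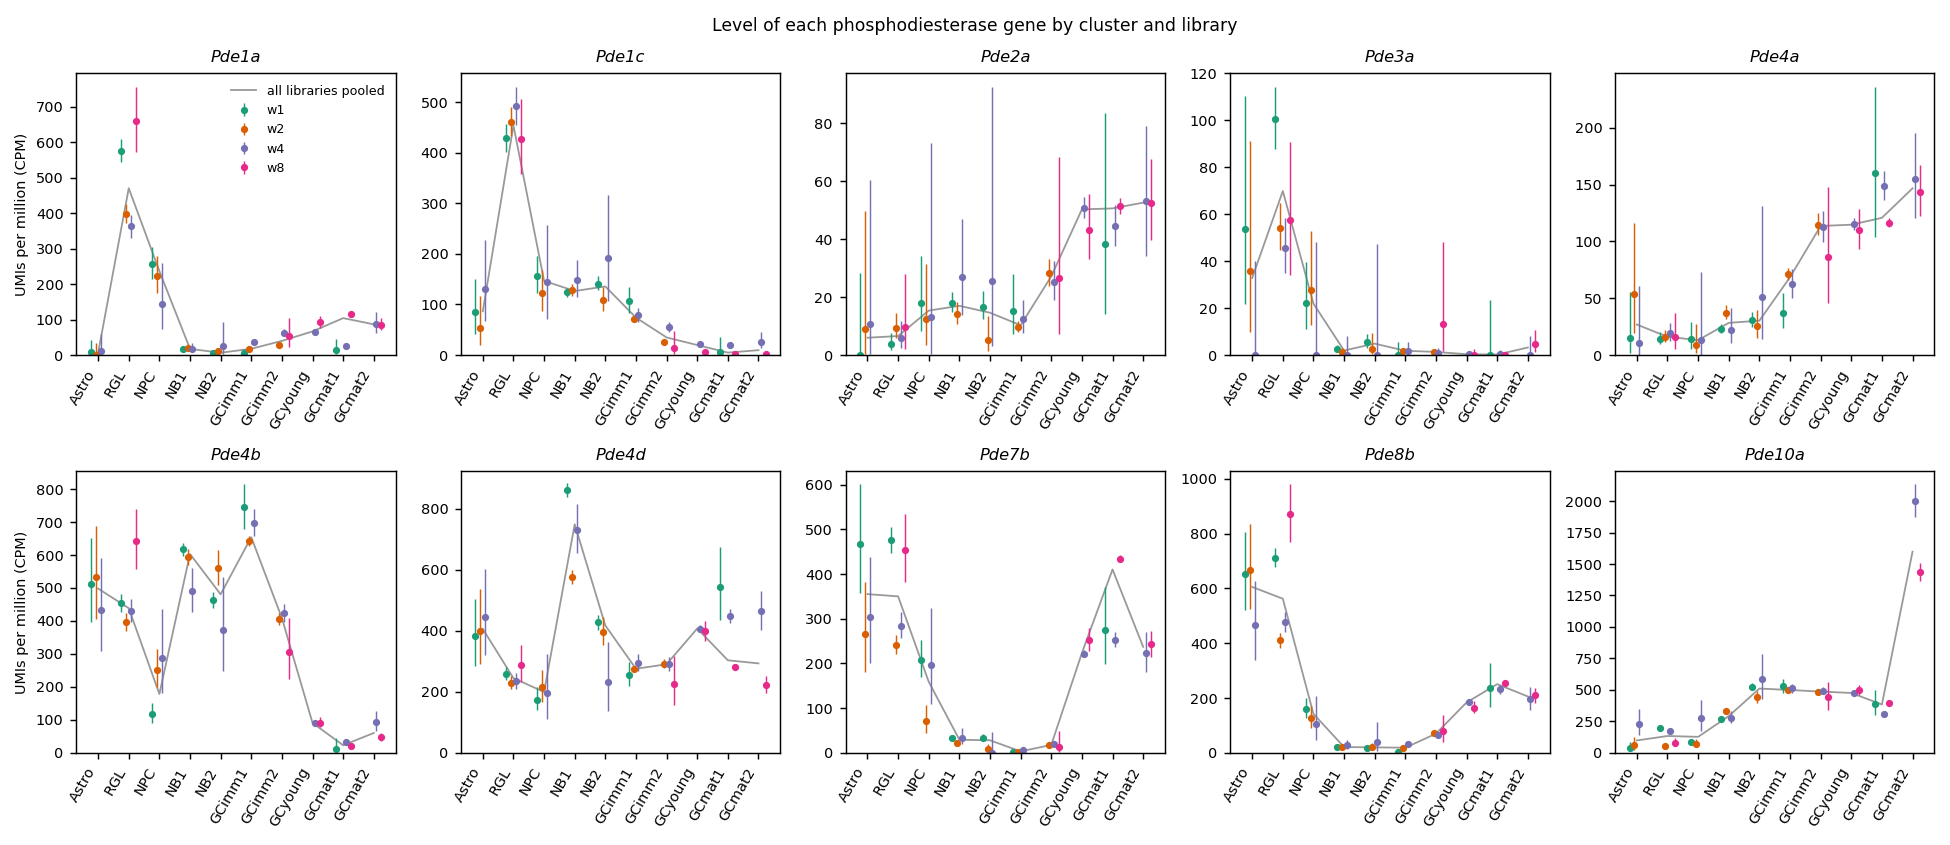
Level of each gene (y axis, CPM, linear and different in each panel) in Astro and the 9 trajectory clusters (x axis), with 1 point for each library that holds at least 10 nuclei of the cluster; bars are exact Poisson 95% intervals and the grey line is the pooled level. Pde1a, Pde1c and Pde3a are highest in RGL, Pde4b and Pde4d between NB1 and GCimm1, and Pde10a in GCmat2. Pde7b has a trough from NB1 to GCimm2 and Pde8b from NB1 to GCimm1.

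Pde2a and Pde3a encode the enzymes regulated by cGMP. Pde2a, which cGMP stimulates, was at 15.3, 9.68 and 12.3 CPM in GCimm1 of w1, w2 and w4, and at 28.1, 25.0 and 26.6 in GCimm2 of w2, w4 and w8, so that w2 and w4, which hold both clusters, both moved up (1.46, SE 0.24, adjusted p = 6.7e-06). In GCyoung it was at 50.7 CPM in w4 and 43.2 in w8 (0.96, SE 0.24, adjusted p = 0.0018). It then stayed between 38.4 and 53.0 CPM in the libraries of GCmat1 and GCmat2, with no call. The rise from GCimm2 to GCyoung lost its call with DESeq2 (adjusted p = 0.0707) and without w4, where it was 0.30 (0.898), and that from GCimm1 to GCimm2 without w2 (0.94, adjusted p = 0.25).

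Pde3a, which cGMP inhibits, fell in the first steps of the path and stayed low. In RGL the libraries w1, w2, w4 and w8 gave 100.5, 54.0, 45.6 and 57.4 CPM, and in NPC the first 3 of them gave 22.0, 27.7 and 0 (-2.08, SE 0.38, adjusted p = 1.7e-05). In NB1 it was at 2.51, 1.22 and 0 CPM (-3.31, SE 0.59, adjusted p = 9.5e-06; -4.01 without w1). From there on it stayed close to the limit of detection. The call from GCmat1 to GCmat2 (3.71, SE 1.11, adjusted p = 0.026) rests on 5 UMIs in GCmat2, all of them from w8, and without w8 the value was -3.80 with an adjusted p of 0.915. It was also lost without the library term (0.107) and with every nucleus thinned to 2000 UMIs (0.384).

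The PDE4 genes among the 10, Pde4a, Pde4b and Pde4d, encode cAMP-selective enzymes that rolipram inhibits, and each of them rose from NPC to NB1. Pde4a rose stepwise and stayed high. Its level went from 14.0, 9.24 and 13.1 CPM in NPC of w1, w2 and w4 to 22.9, 37.4 and 22.4 in NB1 (1.46, SE 0.42, adjusted p = 0.0048), then to 36.6, 71.4 and 62.2 in GCimm1 (1.13, SE 0.18, adjusted p = 2.5e-06). In GCimm2 it was at 115 CPM in w2, 113 in w4 and 86.6 in w8 (0.97, SE 0.16, adjusted p = 1.2e-05). GCyoung, GCmat1 and GCmat2 lay between 110 and 160 CPM in every library, with no call between them. In NPC only 7, 3 and 1 UMIs of Pde4a had been counted, and its first rise lost the call when nuclei were thinned (adjusted p = 0.176) and without w2 (0.191), and it was 2.08 without w1.

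Pde4b was high in neuroblasts and early immature granule cells and low at the end of the path. It fell from 454, 397, 431 and 644 CPM in RGL of w1, w2, w4 and w8 to 118, 253 and 288 in NPC of w1, w2 and w4 (-1.63, SE 0.25, adjusted p = 6.7e-07). In NB1 it was back at 617, 594 and 491 CPM (1.82, SE 0.25, adjusted p = 5.6e-08), above every NPC library. GCimm1 gave 745, 642 and 699 CPM, with no call against NB1 (0.40, SE 0.20, adjusted p = 0.232).

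It then fell in 3 consecutive comparisons. In GCimm2 it was at 405, 424 and 306 CPM in w2, w4 and w8 (-0.67, SE 0.22, adjusted p = 0.035), and in GCyoung at 90.3 in w4 and 92.0 in w8 (-1.78, SE 0.26, adjusted p = 4.3e-07). In GCmat1 12.8, 33.3 and 21.6 CPM were left in w1, w4 and w8 (-1.76, SE 0.27, adjusted p = 5.2e-06), and none of these overlapped with GCyoung. The w1 value rests on 2 UMIs in 17 nuclei. GCmat2 stood above GCmat1 in both libraries, at 92.8 CPM in w4 and 46.9 in w8 (1.22, SE 0.33, adjusted p = 0.011), where the median of all genes was -0.14. On the scale of UMIs per nucleus, which rise with depth, the pooled change from GCimm1 to GCimm2 was -0.18, against -0.68 in CPM. The first of these falls lost its call with DESeq2 (adjusted p = 0.186), without the library term (0.0656), without w2 (0.232) and without w8 (0.0805), and the rise in GCmat2 without w4 (0.180).

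Pde4d, the longest gene of the list, peaked earlier than Pde4b. RGL gave 259, 230, 234 and 287 CPM in w1, w2, w4 and w8, and NPC 174, 216 and 197 in w1, w2 and w4, a small fall (-0.75, SE 0.23, adjusted p = 0.010) that lost its call when nuclei were thinned (0.141) and without w1 (0.104). In CPM the pooled ratio of NPC to RGL was only 0.815, and the counting intervals of w2 (0.720 to 1.21) and w4 (0.464 to 1.41) include 1. In NB1 Pde4d stood at 861, 575 and 730 CPM (2.15, SE 0.23, adjusted p = 5.9e-11), far above every RGL and NPC library. It was lower again in NB2, at 427, 397 and 231 CPM (-0.90, SE 0.20, adjusted p = 0.0029), and in GCimm1, at 256, 274 and 295 (-1.25, SE 0.19, adjusted p = 1.4e-06).

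The fall to NB2 lost its call without w1 (adjusted p = 0.0788) and without w4 (0.0861). Pde4d rose once more from GCimm2 (292, 290 and 226 CPM in w2, w4 and w8) to GCyoung (407 in w4 and 398 in w8), by 0.88 (SE 0.23, adjusted p = 0.0027), a call that was lost without w4 (0.176). The pooled ratio in CPM was 1.40. In the mature clusters the libraries spread widely, from 282 CPM in w8 to 544 in w1 in GCmat1 and from 223 in w8 to 464 in w4 in GCmat2. The w1 value of GCmat1 comes from only 17 nuclei. No change was called there. Against Astro, RGL was lower by a value that was not called here (-0.64, SE 0.24, adjusted p = 0.083) but was called with RLE factors (-0.85) and with DESeq2 (-0.82).

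The cAMP-selective, high-affinity enzymes Pde7b and Pde8b shared a course with a deep trough, high in the stem cell, low in neuroblasts and high again in mature neurons. Astrocytes were as high as RGL, with no call between them. The pooled levels in Astro and RGL were 355 and 350 CPM for Pde7b and 606 and 563 for Pde8b. Pde7b fell from 475, 241, 284 and 453 CPM in RGL of w1, w2, w4 and w8 through 208, 70.9 and 197 in NPC (-1.47, SE 0.23, adjusted p = 1.0e-06) and 34.1, 21.5 and 33.6 in NB1 (-2.10, SE 0.28, adjusted p = 1.2e-08). GCimm1 had only 1.53, 2.92 and 6.16 CPM, from 1, 32 and 10 UMIs (-2.61, SE 0.33, adjusted p = 1.6e-08). It was at 17.2, 19.4 and 13.3 CPM in GCimm2 of w2, w4 and w8 (2.49, SE 0.35, adjusted p = 3.6e-07).

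The return of Pde7b in GCyoung was the strongest called rise of any of the 10 genes between neighbouring neuronal clusters apart from the few UMIs of Pde3a. The level reached 222 CPM in w4 and 252 in w8 (3.47, SE 0.26, adjusted p = 2.7e-15), against 45 and 2 UMIs counted in GCimm2 of the same libraries. GCmat1 gave 275, 253 and 434 CPM in w1, w4 and w8, with no call against GCyoung (0.41, SE 0.20, adjusted p = 0.443). All the calls of Pde7b held without each library in turn.

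Along the path from RGL to the granule cells, Pde8b was at its lowest in neuroblasts and GCimm1. It was at 712, 411, 477 and 870 CPM in RGL of w1, w2, w4 and w8, at 160, 126 and 105 in NPC (-2.32, SE 0.25, adjusted p = 3.9e-11) and at 21.4, 20.1 and 26.9 in NB1 (-2.45, SE 0.30, adjusted p = 2.3e-09). GCimm1 showed no call against NB1 (0.04, SE 0.28, adjusted p = 0.973), although w1, w2 and w4 gave 4.58, 17.7 and 31.4 CPM. From GCimm1 it rose to 71.8, 65.6 and 79.9 CPM in GCimm2 of w2, w4 and w8 (1.96, SE 0.26, adjusted p = 7.7e-08) and to 185 and 165 in GCyoung of w4 and w8 (1.41, SE 0.25, adjusted p = 1.6e-05). The last of these lost its call without w4 (adjusted p = 0.226). GCmat1 lay at 237, 232 and 253 CPM, below every RGL library.

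Pde10a, the dual-substrate enzyme known from the striatum, rose at the start of the neuronal path and was higher in GCmat2, which lies off that path, than in GCmat1. NPC gave 84.2, 70.9 and 275 CPM in w1, w2 and w4 and NB1 268, 330 and 280, a called rise (1.77, SE 0.34, adjusted p = 3.4e-05) that w1 and w2 showed. In w4 the ratio of 1.02 had a counting interval of 0.638 to 1.70, which includes 1. GCimm1 lay at 528, 496 and 511 CPM (0.90, SE 0.25, adjusted p = 0.0082), a call lost with DESeq2 (0.128). Between GCimm1 and GCmat1 no step was called, and from GCyoung to GCmat1 the level went from 474 to 310 CPM in w4 and from 499 to 396 in w8 (-0.44, SE 0.28, adjusted p = 0.665).

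In GCmat2 Pde10a reached 1998 CPM in w4 and 1434 in w8, against 310 and 396 in GCmat1 of the same libraries. The groups did not overlap, and the change was 2.19 (SE 0.28, adjusted p = 4.7e-08). The 5 genes listed as markers of GCmat2 summed to 1511 CPM there and to 241 in GCmat1. GCmat2 held 60 nuclei in w4 and 149 in w8.

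Because intronic reads were counted, levels of different genes are compared here per length, as CPM per 100 kb of gene. On that scale Pde8b (249) and Pde1a (159) led in RGL, and Pde4a (144), Pde4b (126) and Pde10a (108) in GCimm1. In GCmat1 Pde4a (254), Pde7b (125) and Pde8b (111) led, and in GCmat2 Pde10a (346). The lead of Pde4a, the shortest gene, holds on this scale only. In CPM, GCmat1 had 121 of Pde4a against 410 of Pde7b, 384 of Pde10a, 303 of Pde4d and 251 of Pde8b. GCimm1 had 68.6 CPM of Pde4a against 654 of Pde4b and 499 of Pde10a. Pde4d, with the longest span, was at 49.8 per 100 kb in NB1. How UMIs depend on gene length was not tested.

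The pseudo-time that the authors had assigned along the path from RGL to GCmat1 gave a finer order, in bins of 2 units. Pde4d was highest at 10 to 12 units (780 CPM) and Pde4b at 14 to 16 (783 CPM), and Pde4b then declined through 304 CPM at 20 to 22 and 51.7 at 26 to 28 to 20.8 at 30 to 32. Pde7b reached its lowest level, 3.07 CPM, at 16 to 18 units and 467 CPM at 30 to 32. Pde8b was lowest at 14 to 16 units (15.3 CPM) and ended at 261. Pde10a reached 626 CPM at 24 to 26 units, and Pde1a had a second, lower maximum of 155 CPM in that bin after 11.9 at 14 to 16.

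**Figure D3:**
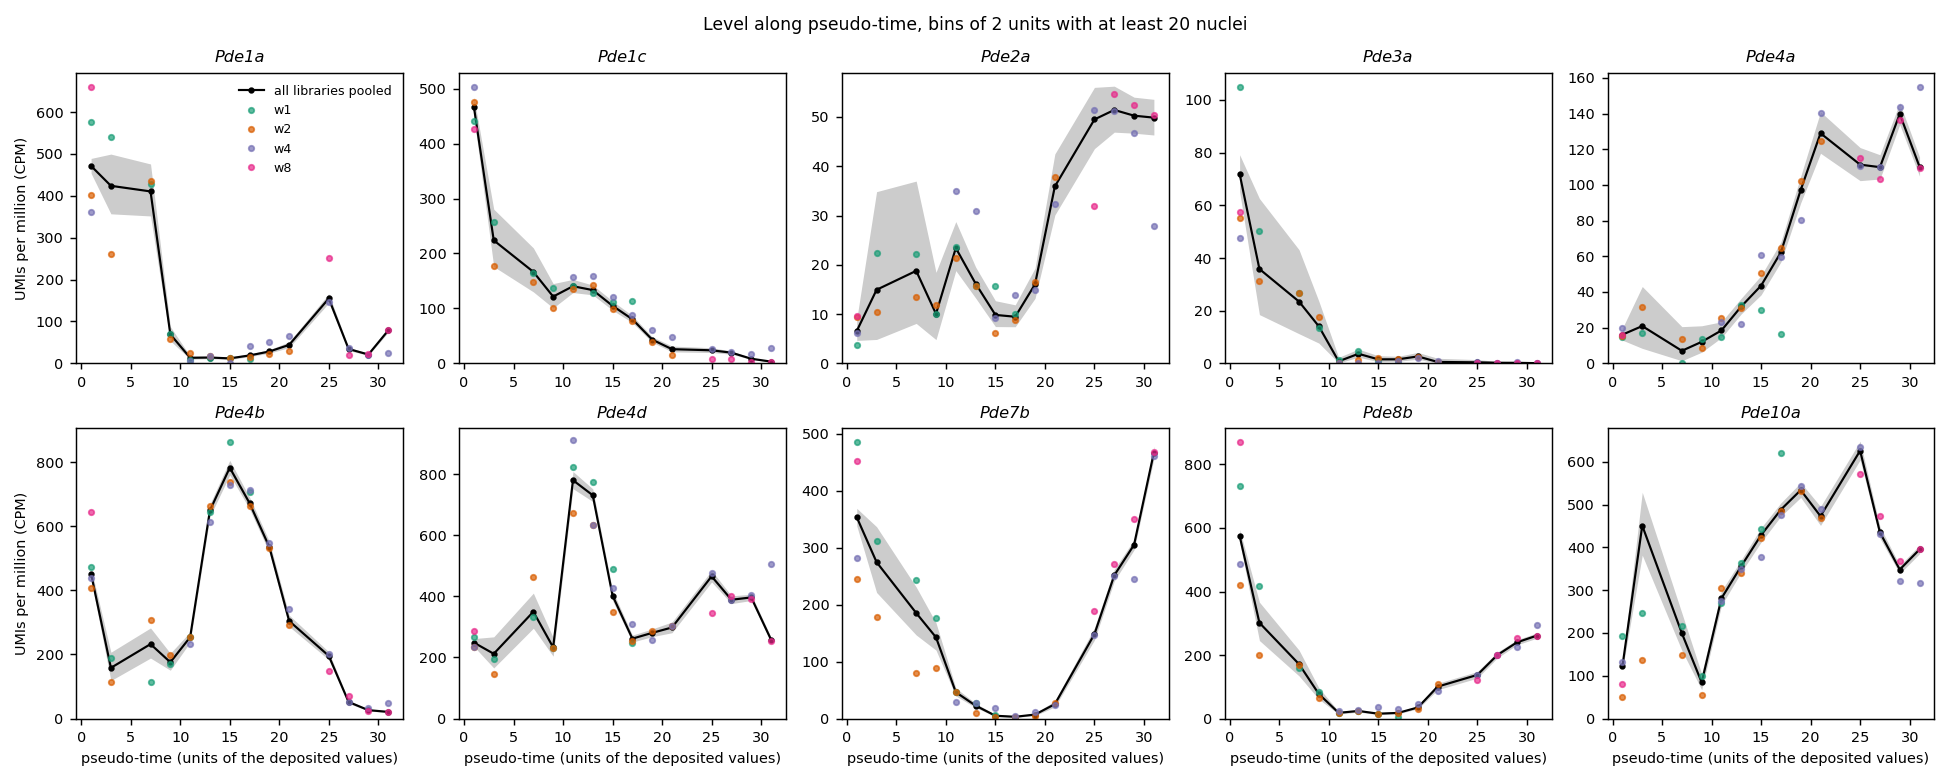
Level of each gene (y axis, CPM, linear and different in each panel) along the deposited pseudo-time (x axis), in bins of 2 units with at least 20 nuclei; the black line and grey band are the pooled level with its exact Poisson 95% interval, the coloured points are single libraries, and bins at 4 to 6 and 22 to 24 units held too few nuclei. The peak of Pde4d (780 CPM) precedes that of Pde4b (783 CPM), and the lowest levels of Pde7b (3.07 CPM) and Pde8b (15.3 CPM) lie in the bin after or at the Pde4b peak.

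A share of the GCmat1 nuclei had no pseudo-time in the deposited table. The study's methods describe setting aside GCmat1 nuclei by a ventral expression signal, but the number they give differs from that in the table, so it is not known that these are the same nuclei. The group may have been chosen from expression, and the following is a description without a test. In w8, Pde1a was at 658 CPM (95% interval 625 to 691) in the 216 nuclei without a pseudo-time and at 59.4 (56.3 to 62.7) in the 2711 with one. The other way round, Pde4d was at 88.8 CPM (77.3 to 102) without and 302 (295 to 309) with a pseudo-time. Pde7b (525 and 425 CPM), Pde10a (493 and 385), Pde8b (210 and 258) and Pde4a (88.8 and 119) differed by smaller ratios, as did Pde4b, at 30.9 CPM (24.2 to 38.7) without and 20.7 (18.9 to 22.6) with a pseudo-time. Pde2a (52.5 and 51.3) and Pde1c (3.753 and 2.704) had overlapping intervals, and Pde3a had only 3 UMIs without and 1 with a pseudo-time. In w4 only 4 GCmat1 nuclei lacked a pseudo-time, and Pde1a was at 403 CPM in them and at 21.1 in the 399 with one. The GCmat1 level of Pde1a over all libraries was 104 CPM.

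**Figure D4:**
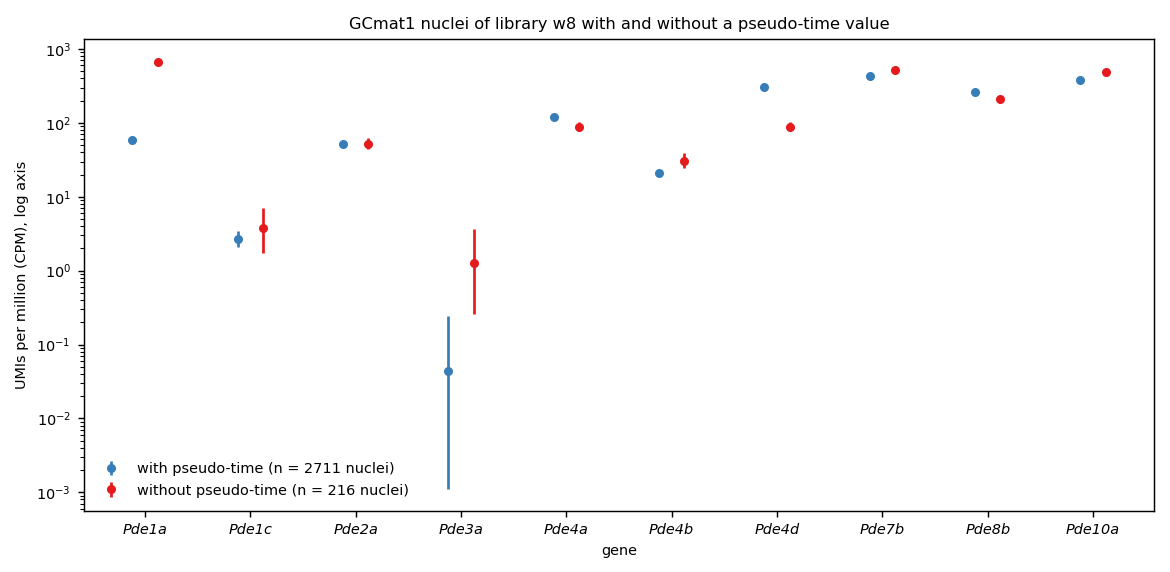
Level of each gene (y axis, CPM, log axis) in GCmat1 nuclei of w8 with (blue, 2711 nuclei) and without (red, 216 nuclei) a deposited pseudo-time; bars are exact Poisson 95% intervals and cover counting error only. Pde1a is far higher without a pseudo-time (658 against 59.4 CPM) and Pde4d lower (88.8 against 302 CPM).

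Outside the neuronal path, Pde4b had its highest level of any cluster in oligodendrocytes. It was at 11440, 11330 and 15413 CPM in Oligo of w2, w4 and w8 and at 2032, 2004, 1860 and 2061 in OPC of w1, w2, w4 and w8. All Oligo libraries exceeded all OPC libraries (2.42, SE 0.22, adjusted p = 1.3e-13). OPC and Oligo were compared in a fit over all 13 clusters with 11548 genes tested, in which the median of all genes was -0.43. Of the 10 genes 1 rose and 6 fell, where 20% of all genes were called, 6.7% higher and 13.2% lower.

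Pde4d moved against Pde4b in this lineage. OPC gave 1342, 1425, 1759 and 1431 CPM of Pde4d in w1, w2, w4 and w8, its highest level in any cluster, and Oligo 206, 105 and 120 in w2, w4 and w8 (-3.64, SE 0.31, adjusted p = 1.1e-14). Pde7b, at 736, 564, 689 and 724 CPM in OPC, was not counted once among 219664 UMIs of Oligo, and was at least 49.0-fold lower there, taking 3 UMIs over the cluster as the limit. Pde8b fell from between 184 and 340 CPM to between 0 and 44.9 (-4.01, SE 0.62, adjusted p = 6.0e-07; -5.25 without w8), and Pde10a from between 379 and 783 to between 52.6 and 113 (-2.97, SE 0.75, adjusted p = 0.0020).

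Pde1a was at 112 to 278 CPM in OPC and had 1 UMI in Oligo, a pooled ratio of 0.0242 with a counting interval of 6.1e-04 to 0.137. The fitted change was -5.51 (SE 1.09, adjusted p = 6.5e-05), and without w8, which holds that UMI, no Oligo UMI is left. Pde2a was called lower too (adjusted p = 0.027), but on 17 UMIs in OPC against 0 in each of the Oligo sums of the fit. The only Pde2a UMI of Oligo lay in the 6 nuclei of w1, which the fit left out, and with it the counting interval of the ratio ran from 0.00433 to 1.15. The call was lost with DESeq2, with thinning, without w4 and without w8. Pde1c (0.29, SE 0.40, adjusted p = 0.691), Pde3a (-1.34, SE 0.52, adjusted p = 0.0612) and Pde4a (-0.19, SE 0.86, adjusted p = 0.936) were not called. Oligo held 10, 16 and 13 nuclei in the libraries used. The 4 markers of oligodendrocytes summed to 12961 CPM in Oligo and to between 69.3 and 111 in the clusters from Astro to GCmat2, beside which Pde4b had its lowest level, 23.1 CPM, in GCmat1. Their part in that level was not tested.

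In pericytes, Pde1a was at 1323 CPM in w1 and 858 in w2 and Pde7b at 1842 and 820, above all other clusters for both genes. Pde10a was at 7417 CPM in the 18 pericytes of w1 (729 UMIs) and at 207 in the 40 of w2 (44 UMIs), so its pooled level of 2451 CPM is set by w1. The 4 pericyte markers, of which 3 had a UMI there, summed to 1061 CPM in this cluster, less than the 1469 CPM of the 6 RGL markers, and the astrocyte markers summed to 407. No comparison with pericytes was tested.

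**Figure D5:**
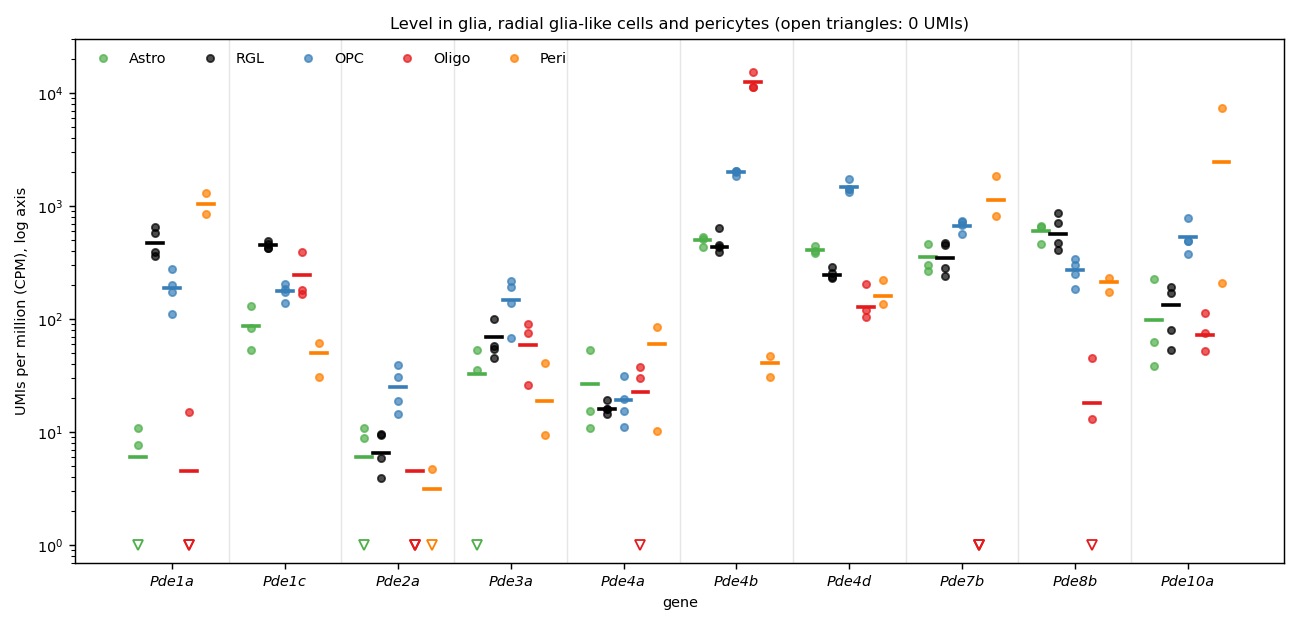
Level of each gene (y axis, CPM, log axis) in Astro, RGL, OPC, Oligo and Peri, with 1 point for each library of at least 10 nuclei, a horizontal line for the pooled level and an open triangle at the lower edge for 0 UMIs. Pde4b stands at 12578 CPM in Oligo, Pde7b has no UMI there, and the 2 pericyte libraries of Pde10a lie far apart.

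The rest of the cyclic nucleotide pathway was followed through 90 listed genes, of which 88 were in the files and 65 were tested. From RGL to NPC 8 of these rose and 12 fell, from NPC to NB1 20 rose and 7 fell, and from NB1 to NB2 none was called. Then 10 rose and none fell from NB1 to GCimm1, 9 rose and 1 fell from GCimm1 to GCimm2, and 12 rose and 11 fell from GCimm2 to GCyoung. The last comparisons called 5 (GCyoung to GCmat1) and 6 (GCmat1 to GCmat2) of them, that from Astro to RGL 9, and that from OPC to Oligo 22 of 60, of which 17 fell. Over all genes tested, 29.5% were called from RGL to NPC, 29.3% from NPC to NB1 and 2.94% from NB1 to NB2. The next steps called 12.5% (NB1 to GCimm1), 9.43% (GCimm1 to GCimm2) and 18.9% (GCimm2 to GCyoung). For the remaining comparisons the shares were 3.85% (GCyoung to GCmat1), 7.3% (GCmat1 to GCmat2), 9.58% (Astro to RGL) and 20% (OPC to Oligo).

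Among the other phosphodiesterases, 3 of 9 tested rose and 1 fell from RGL to NPC, where 13.7% of all genes rose and 15.9% fell. From NPC to NB1 4 of 9 rose and 1 fell, where 14.7% of all genes rose and 14.6% fell. From OPC to Oligo 2 of 7 rose and none fell, where 6.7% of all genes rose and 13.2% fell. From RGL to NPC Pde3b, the second gene of the cGMP-inhibited family, rose from 16.1 to 203 CPM (3.35, SE 0.24, adjusted p = 1.7e-16), the direction opposite to Pde3a. Pde9a, which is selective for cGMP, fell from 28.2 to 6.57 CPM at this step (-3.39, SE 0.63, adjusted p = 2.2e-05) and rose to 86.5 in NB1 (4.89, SE 0.51, adjusted p = 2.1e-11). Pde5a, the cGMP-selective target of sildenafil, fell from NPC to NB1 (28.5 to 5.87 CPM, adjusted p = 1.1e-04). Pde8a rose from OPC to Oligo, from 65.2 to 756 CPM (3.31, SE 0.31, adjusted p = 5.9e-13), while Pde8b fell.

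Of the adenylyl cyclases, which make cAMP, 4 of 8 rose and 2 fell from GCimm2 to GCyoung, where 9.27% of all genes rose and 9.62% fell. Adcy1, a calcium-stimulated cyclase, rose from 14.4 to 158 CPM (3.19, SE 0.23, adjusted p = 4.7e-16) and Adcy8, another of that kind, from 1.34 to 13.6 (3.18, SE 0.58, adjusted p = 2.4e-05). Adcy8 rose again to 60.9 CPM in GCmat1 (1.42, SE 0.28, adjusted p = 4.5e-04) and to 335 in GCmat2 (2.62, SE 0.25, adjusted p = 7.4e-12), where Pde10a also rose. Adcy10, the soluble bicarbonate-regulated cyclase, rose in GCmat1 (13.7 to 34.0 CPM; 0.93, SE 0.24, adjusted p = 0.010) and fell in GCmat2 (5.77 CPM; -2.47, SE 0.45, adjusted p = 6.8e-05). Adcy2 rose from GCimm1 to GCimm2 (36.3 to 100.3 CPM; 1.57, SE 0.24, adjusted p = 2.3e-06).

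Downstream, Rapgef3, the cAMP-activated exchange factor Epac1, fell from GCimm2 to GCyoung (17.1 to 2.48 CPM; -2.51, SE 0.38, adjusted p = 6.7e-07). Rapgef3 was also called lower from Astro to RGL (227 to 20.8 CPM; -3.39, SE 0.31, adjusted p = 1.5e-12) and from GCyoung to GCmat1 (2.48 to 0.24 CPM; -2.98, SE 0.68, adjusted p = 0.0032). Its GCmat1 level lay close to the limit of detection, beside 0.21 CPM of Pde3a in that cluster. From NB1 to GCimm1 Rapgef3 was called higher, as both Epac genes tested were, where 7.76% of all genes rose. Prkg1, a cGMP-dependent kinase, rose from Astro to RGL (56.7 to 429 CPM; 2.87, SE 0.43, adjusted p = 8.5e-07) and from NB1 to GCimm1 (414 to 1338 CPM; 1.92, SE 0.25, adjusted p = 3.4e-08). Between these steps Prkg1 was called lower from RGL to NPC (-2.11) and higher from NPC to NB1 (1.96). In oligodendrocytes the guanylyl cyclase subunit Gucy1a2 (280 CPM in OPC) and the kinase Prkg2 (182 CPM in OPC, and itself an OPC marker) had no UMI, and were at least 20.5-fold and 13.3-fold lower.

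Over the 10 clusters from Astro to GCmat2, Pearson's r of log2(CPM + 1) was highest among the 45 pairs of the 10 genes for Pde7b and Pde8b (0.893) and lowest for Pde1c and Pde4a (-0.891). The points are clusters of the same 4 libraries and r is a description. Of all genes tested with at least 50 CPM in a cluster, the most alike were Tmem132b for Pde1a (0.931), Cd9 for Pde1c (0.974), Wasf1 for Pde2a (0.967), Fzd6 for Pde3a (0.976) and Dlgap1 for Pde4a (0.991). For the others they were Pik3r1 for Pde4b (0.973), Ip6k2 for Pde4d (0.792), Phxr4 for Pde7b (0.951), Grhl1 for Pde8b (0.993) and Mgat3 for Pde10a (0.954). Pde4d had the lowest of these values, so that no gene of that level shared its course closely. The next most alike genes were B4galt1, Lzic, Rps6ka2, Rasa3, Kcng2, Smurf1, Dpf3, Cpped1 and Iqsec3, in the order of the genes as first listed, leaving out Pde8b.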

How the data were processed

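Nuclei of 4 pooled dentate gyrus libraries had been sorted and sequenced with a 10x 3′ v3.1 kit. The deposited counts are raw UMI counts per gene and nucleus, made by the authors with STARsolo 2.7.4a (submitters' processing notes) on mm10 over exons and introns, with multi-mapped reads left out. The deposited log2 table holds counts that the authors divided by scran size factors, with 1 added, for 13353 genes, after doublets had been removed with scDblFinder. It also carries their clusters and slingshot pseudo-time, and both were used as given.

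UMIs were summed per library and cluster, for sums of at least 10 nuclei, and tested with edgeR 4.0.16 in R 4.3.3 (filterByExpr, TMM, glmQLFit, glmQLFTest) with cluster and library as terms. The fit of Astro to GCmat2 held 29 sums with 16 residual degrees of freedom, and that of all 13 clusters 38 sums with 22. Levels are UMIs per 1000000 (CPM) with exact Poisson 95% intervals, which cover counting error only, and 3 UMIs are taken as the limit for a count of 0. Libraries held 13227971 to 28595331 UMIs in clustered nuclei. Sums of 1 library share mice, and the library term takes up shifts common to a pool. The p-values therefore set cluster differences against a spread between pools, taken over all clusters of a fit, and not between mice. Scripts were tested on simulated data.

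Alternatives were DESeq2 1.42.0, RLE factors, no library term, no filter on low counts, sums of at least 20 nuclei, nuclei thinned to 2000 UMIs (141 shallower ones left out), the mean log2 values with limma 3.58.1, each library left out and, for levels, UMIs per nucleus in place of CPM and only nuclei with a pseudo-time. Named were the 10 genes, the 2 largest called increases and decreases of the pathway list per comparison with at least 50 UMIs and 1 direction in every library, and the 2 genes most alike each of the 10. The genes and lists were chosen with earlier results of these data known. Some items that these rules select are not reported here.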

Additional observations from a re-analysis of the deposited data

Results flagged for a closer look

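In 3 cases w4 and w8 moved in opposite directions between the same clusters, with counting intervals of the ratio that leave out 1 in each library. The differences between weeks were not tested, since each week is 1 pool. For Pde1a the ratio of GCmat1 to GCyoung was 0.400 in w4 and 1.26 in w8, and that of GCmat2 to GCmat1 was 3.43 in w4 and 0.739 in w8. For Pde4d the ratio of GCmat1 to GCyoung was 1.10 in w4 and 0.707 in w8. GCmat1 of w8 held 216 nuclei without a pseudo-time and that of w4 held 4. Among GCmat1 nuclei of w8 with one, Pde1a was at 59.4 CPM, below GCyoung (92.0 CPM) and GCmat2 (85.8 CPM) of w8, the same directions as in w4. Only GCmat1 was restricted in this way, and leaving out nuclei higher in Pde1a lowers its level by construction. The cause of the opposite directions was not tested. Pde4d was at 302 CPM in the GCmat1 nuclei of w8 with a pseudo-time, below GCyoung of w8 (398 CPM) as before. Among the 20 groups of 4 libraries (RGL and OPC for each gene), no library stood apart by Dixon's criterion, which chance meets in about 1 of 20 groups.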

How the results depend on the processing

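Of the 46 called changes of the 10 genes, 19 kept their call in every alternative and 45 their direction. Calls lost numbered 7 with DESeq2, 5 without the library term, 4 with thinned nuclei and 22 of 43 with mean log2 values, and 0 with RLE factors, without the filter, with at least 20 nuclei (39 changes) or without the 17 GCmat1 nuclei of w1, an alternative chosen after seeing the data. No row of the mean log2 values is named Pde2a. With these values 2 genes were called from NPC to NB1, 2 from NB1 to NB2 and 2 from NB1 to GCimm1. Further on 0 were called from GCimm1 to GCimm2, 2 from GCimm2 to GCyoung, 0 from GCyoung to GCmat1 and 1 from GCmat1 to GCmat2. Without the filter 3 were called from NB1 to NB2, and 4 from GCimm1 to GCimm2 both with DESeq2 and without the library term. Leaving out each library in turn gave 0 to 1 calls from NB1 to NB2 (0 without w1, and 1 without w4, which was not Pde4d), 3 to 7 from GCimm1 to GCimm2 (3 without w2), 2 to 6 from GCimm2 to GCyoung (2 without w4) and 1 to 2 from GCyoung to GCmat1 (2 without w8). The change of Pde3a from GCmat1 to GCmat2 ranged from -3.80 without w8, which holds its 5 GCmat2 UMIs, to 4.51 without w4. The cause of the other shifts was not tested. Over all genes, DESeq2 called 813 against 1274 from GCimm1 to GCimm2, 229 against 520 from GCyoung to GCmat1 and 194 against 397 from NB1 to NB2, and from Astro to RGL 318 higher and 890 lower against 644 and 651. From GCimm2 to GCyoung DESeq2 called 682 higher and 1152 lower against 1253 and 1300, and from GCmat1 to GCmat2 376 and 303 against 407 and 579. As UMIs per nucleus in place of CPM, 9 pooled changes moved by more than the spread between libraries, 36 did not, and none changed sign. Those that moved were, from GCimm1 to GCimm2, Pde1a (1.67 against 1.18), Pde2a (1.90 against 1.40), Pde4a (1.22 against 0.73) and Pde4b (-0.18 against -0.68), from NB1 to GCimm1 Pde4d (-1.08 against -1.44) and Pde10a (1.13 against 0.77), from OPC to Oligo Pde1a and Pde2a, and from GCmat1 to GCmat2 Pde3a. With only nuclei that have a pseudo-time, 1 of the pooled changes compared moved and 3 did not. OPC and Oligo could not be compared with at least 20 nuclei, since no Oligo sum is that large. The library term sets clusters of the same library against each other, and without it 5 calls were lost. Weeks could not be paired, since each is 1 library. Counts near 0 in Oligo, Astro and GCmat2 limit what is said of Pde1a, Pde2a and Pde3a there.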
